A study of Mus musculus with 3 samples.

Results

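The circadian clock genes described here are Per1, Per2, Per3, Cry1, Cry2, Arntl (also called Bmal1), Clock, Nr1d1, Nr1d2 and Dbp. They were chosen by gene name, and all 10 were found among the 54532 genes of the deposited table. The molecular clock is a feedback loop. ARNTL and CLOCK pair and bind E-boxes to switch on the Per, Cry, Nr1d1, Nr1d2 and Dbp genes. PER and CRY proteins then repress that pair, while NR1D1 and NR1D2 (REV-ERB alpha and beta) repress Arntl. In tissues with a running clock, Arntl RNA therefore peaks at the opposite time of day from Dbp, Nr1d1, Nr1d2 and Per3, and the hippocampus is one of the brain regions where these genes cycle.

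The RNA came from hippocampi of C57BL/6 mice aged 10 months and of 3 genotypes, with 1 library each: wild type (WT), PS19, and PS19 Zbp1+/-. PS19 mice express mutant human tau from a transgene under control of the mouse Prnp promoter. PS19 Zbp1+/- mice carry the same transgene and have lost one allele of Zbp1, a sensor of left-handed nucleic acids. The mice lived on a 12-h light/dark cycle, per the labels, which state neither the time of collection nor the number of animals behind a library. No difference below has a replicate check, and all intervals are exact (Clopper-Pearson) 95% intervals that cover counting error only.

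Recovered reads summed to between 16400328 and 17109734 per library. Zbp1, the targeted gene, was covered by 5 WT reads, 91 PS19 reads and 0 PS19 Zbp1+/- reads. Counting error alone allows a PS19 Zbp1+/- level of up to 1.19 times that of WT, but only up to 0.0452 times that of PS19. The count of 0 is thus compatible with a remaining allele active at the WT level and not with one active at the PS19 level, and it does not settle the heterozygous label. The PS19 Zbp1+/- library also held 711 reads of the Y-linked gene Ddx3y and 0 of Xist, against 0 of Ddx3y and 11062 (WT) or 13350 (PS19) of Xist in the others. Animal sex and genotype therefore cannot be told apart in either comparison with PS19 Zbp1+/-. All 6 hippocampal markers looked up were present in all 3 libraries. Of these, 2 were called lower in PS19 Zbp1+/- than in WT at the 1.5-fold threshold given below, Prox1 of dentate granule neurons (FPKM values of 8.76, 9.51 and 5.20 in WT, PS19 and PS19 Zbp1+/-) and Spink8 (21.0, 14.65 and 11.4), and 2 were called lower than in PS19, Prox1 and Zbtb20 (6.42, 11.35 and 5.26). In the other direction, Neurod2 (53.6, 47.6 and 77.7) was called higher in PS19 Zbp1+/- than in PS19. Zbtb20 was called higher in PS19 than in WT. Over all genes tested, 7.12% were called lower in PS19 Zbp1+/- than in WT. Against PS19, 12.1% were called lower and 9.37% higher in PS19 Zbp1+/-, and 6.34% were called higher in PS19 than in WT. Genes with 8 to 12 reads in the other libraries had no read in PS19 Zbp1+/- in 16% of cases (interval 12.3% to 20.2%), against 2.14% for WT and 0.41% for PS19. The clock genes lay well above that range, with 235 to 2705 reads each.

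Levels are given as FPKM, fragments scaled by gene length and the library size implied by the deposited values. They are always in the order WT, PS19, PS19 Zbp1+/-. The implied size was below the total of recovered reads in PS19 Zbp1+/- (15826984 against 17109734). It was above the total in WT (17253479 against 16746085) and in PS19 (17287957 against 16400328). Ratios of PS19 Zbp1+/- over the others are therefore higher than they would be per total reads. In the PS19 Zbp1+/- library, Per3, Nr1d2 and Dbp were at their lowest and Arntl at its highest. WT and PS19 lay closer together for Per3, Nr1d2 and Dbp, while for Arntl WT lay between the others. Nr1d1 went the other way from its paralog Nr1d2 and had its highest FPKM in PS19 Zbp1+/-, although a scaling on neuronal markers turned its difference from PS19. The dot plot of FPKM by gene shows all 30 values.

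**Figure D1:**
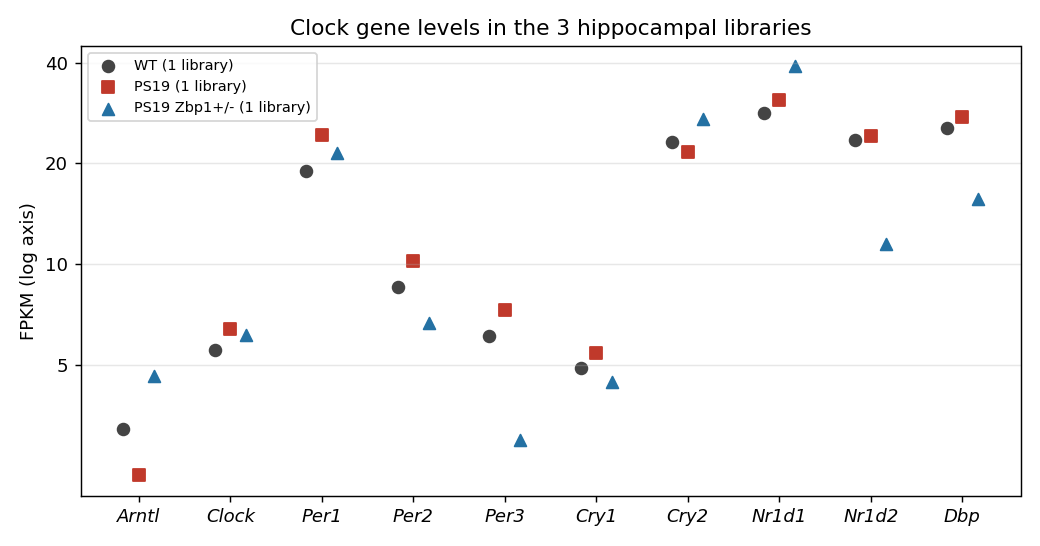
FPKM (log axis) of the 10 clock genes in the WT (circle), PS19 (square) and PS19 Zbp1+/- (triangle) libraries, with 1 point per library and no error bars because there are no replicates. Per3, Nr1d2 and Dbp show the PS19 Zbp1+/- library far below both others (Per3 at 2.99 against 6.08 and 7.30), and Arntl shows it above both (4.61 against 3.20 and 2.34).

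Of the activators, Arntl (ENSMUSG00000055116; chromosome 7, 113207465 to 113314126) had FPKM values of 3.20, 2.34 and 4.61, from 416, 304 and 549 reads. PS19 was the lowest library and PS19 Zbp1+/- the highest. The read ratio, taken per implied library size, was 1.97 for PS19 Zbp1+/- over PS19 (interval 1.71 to 2.28), 1.44 for PS19 Zbp1+/- over WT (1.26 to 1.64) and 0.729 for PS19 over WT (0.627 to 0.848). Clock (chromosome 5, 76209868 to 76304792), whose protein is the partner of ARNTL and which cycles little in most tissues, had FPKM values of 5.54, 6.39 and 6.12. Its ratio of PS19 Zbp1+/- over PS19 was 0.958 (0.889 to 1.03), so a difference there was not detectable at this depth.

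The Period genes, which encode the repressors that time the loop, did not move alike. Per3 (ENSMUSG00000028957; chromosome 4, 151003652 to 151044665) had FPKM values of 6.08, 7.30 and 2.99, from 1008, 1212 and 454 reads. It was 2.04-fold lower in PS19 Zbp1+/- than in WT (interval 1.82 to 2.28) and 2.44-fold lower than in PS19 (2.19 to 2.73). Per2 (chromosome 1, 91415982 to 91459324) stood in the same order with a smaller gap, at FPKM values of 8.55, 10.2 and 6.68. It was 1.28-fold lower in PS19 Zbp1+/- than in WT (1.15 to 1.42). On the log2(FPKM + 1) scale this difference was -0.31, and -0.62 once the median of genes alike in GC content and length was subtracted. Per1 (chromosome 11, 69095217 to 69109960), which also answers to neuronal activity and glucocorticoids, had FPKM values of 19.0, 24.3 and 21.5, with PS19 highest. Its difference between PS19 Zbp1+/- and WT was 0.17 on the log2(FPKM + 1) scale and turned to -0.20 with the same correction, and it was also negative (-0.09) when the libraries were centred on neuronal markers. The FPKM of Per3 over that of Per1 was 0.321, 0.30 and 0.139 (interval of the last 0.125 to 0.154), a ratio within each library that no library scaling alters.

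The cryptochromes are the repressors that pair with PER. Cry1 (chromosome 10, 85131700 to 85185064) had FPKM values of 4.89, 5.40 and 4.45, and its ratio to WT was 1.10 in PS19 (0.937 to 1.30) and 0.908 in PS19 Zbp1+/- (0.761 to 1.08). Neither difference from WT was detectable at this depth. Against PS19, PS19 Zbp1+/- had a ratio of 0.823 (0.692 to 0.978), and the difference moved from -0.23 to -0.66 on the log2(FPKM + 1) scale when centred on neuronal markers. Cry2 (chromosome 2, 92403646 to 92434043) had FPKM values of 23.1, 21.6 and 27.0, with a ratio of 1.17 for PS19 Zbp1+/- over WT (1.11 to 1.24). The direction of Cry2 depended on the scaling. Its difference on the log2(FPKM + 1) scale was 0.31 between PS19 Zbp1+/- and PS19, and -0.12 when centred on neuronal markers. Between PS19 Zbp1+/- and WT it was 0.22, 0.07 per total recovered reads, and -0.08 with GC content and length corrected for.

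The Nr1d genes encode the repressors of the second loop. Nr1d2 (ENSMUSG00000021775; chromosome 14, 18204054 to 18239127) had FPKM values of 23.4, 24.2 and 11.4, from 2185, 2263 and 979 reads. WT and PS19 did not differ beyond counting error (ratio 1.03, 0.974 to 1.10), while PS19 Zbp1+/- was 2.05-fold lower than WT (1.90 to 2.21) and 2.12-fold lower than PS19 (1.96 to 2.28). Nr1d1 (ENSMUSG00000020889; chromosome 11, 98767932 to 98775333) had FPKM values of 28.3, 30.8 and 39.0, from 1502, 1641 and 1898 reads. Its ratio was 1.38 for PS19 Zbp1+/- over WT (1.29 to 1.48) and 1.26 over PS19 (1.18 to 1.35). Centred on neuronal markers, the second of these turned from 0.33 to -0.10 on the log2(FPKM + 1) scale. The FPKM of Nr1d1 over that of Nr1d2 was 1.21 in WT (1.13 to 1.29), 1.28 in PS19 (1.20 to 1.36) and 3.41 in PS19 Zbp1+/- (3.15 to 3.69).

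Nr1d1 shares 263 of its 3077 exon bases with Thra, a thyroid hormone receptor gene on the other strand, and counting by strand is not given in the sources used here. Thra had 12394, 9801 and 14718 reads in the same order, so it was also highest in PS19 Zbp1+/-. Reads of the shared bases cannot be told apart. Dbp shares 539 of its 2993 exon bases with the antisense gene Sphk2, which had 579, 509 and 643 reads and so did not share the low value of Dbp in PS19 Zbp1+/-. Smaller antisense overlaps were found for Cry2, with 295 of 6320 exon bases shared with D930015M05Rik (8, 21 and 11 reads), and for Arntl, with 33 of 7523 shared with Gm45355 (3, 1 and 0 reads). Camta1 overlaps Per3, and Gm43658 and Ube2n-ps1 overlap Clock, on the same strand with 0 shared exon bases.

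Dbp (ENSMUSG00000059824; chromosome 7, 45705088 to 45710203) encodes an output factor of the clock that binds D-boxes, and its RNA is among the strongest cycling transcripts of many tissues. Its FPKM values were 25.5, 27.5 and 15.7, from 1317, 1424 and 742 reads. PS19 Zbp1+/- was 1.63-fold lower than WT (1.49 to 1.78) and 1.76-fold lower than PS19 (1.61 to 1.92). The ratio of PS19 to WT was 1.08 (1.0 to 1.16). The panels of read ratios show the intervals of all 10 genes side by side.

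**Figure D2:**
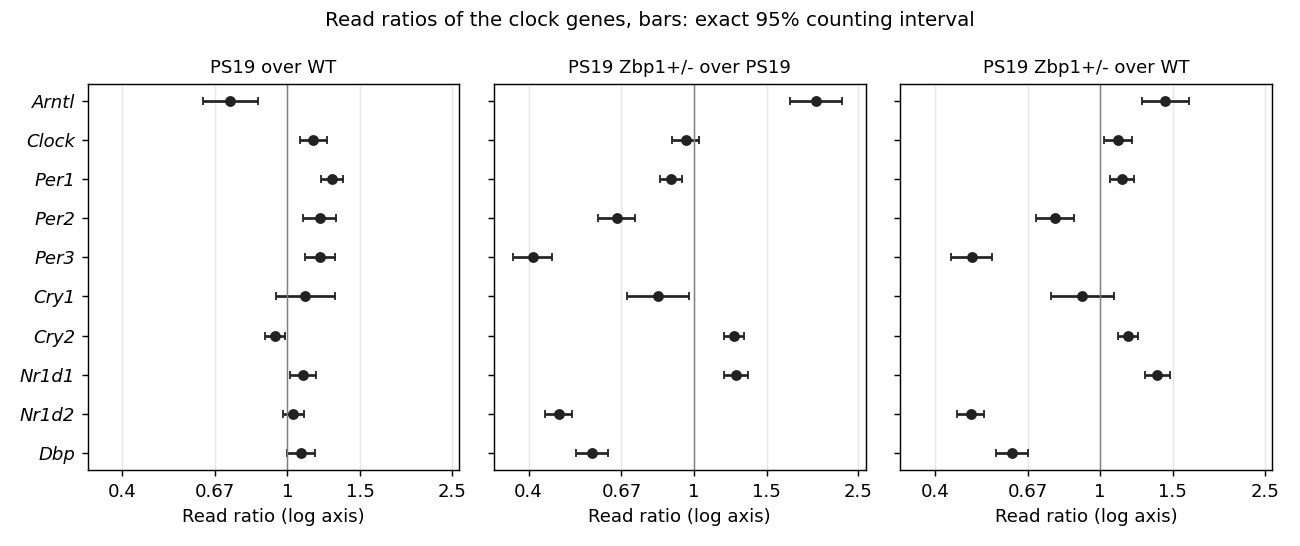
Read ratios per implied library size (log axis) of the 10 clock genes, in 3 panels for PS19 over WT, PS19 Zbp1+/- over PS19 and PS19 Zbp1+/- over WT; points are ratios, bars are exact 95% intervals of counting error, and the vertical line marks a ratio of 1. In both panels of PS19 Zbp1+/-, Per3, Nr1d2 and Dbp lie between 0.409 and 0.614 and Arntl between 1.44 and 1.97, while in the first panel the genes lie between 0.729 and 1.28.

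The order of levels restates the same FPKM values as places. By FPKM, Nr1d1 held place 1 in all 3 libraries. Dbp held place 2 in WT and PS19 and place 4 in PS19 Zbp1+/-. Per3 held place 7 in WT and PS19 and place 10, the last, in PS19 Zbp1+/-. Arntl was last in WT and PS19 and at place 8 in PS19 Zbp1+/-. Some neighbours in these orders did not differ beyond counting error. In WT these were Nr1d2 and Cry2 (ratio 1.01, 0.956 to 1.07) and Clock and Cry1 (1.13, 0.994 to 1.29), and in PS19 they were Per1 and Nr1d2 (1.005, 0.948 to 1.06). In PS19 Zbp1+/- they were Per2 and Clock (1.09, 0.991 to 1.20) and Arntl and Cry1 (1.04, 0.889 to 1.21).

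Ratios between genes of one library do not depend on how libraries are scaled. The FPKM of Dbp over that of Arntl was 7.96 in WT (7.12 to 8.91), 11.8 in PS19 (10.4 to 13.4) and 3.40 in PS19 Zbp1+/- (3.04 to 3.80). For Nr1d2 over Arntl the ratios were 7.30, 10.4 and 2.48, and the third interval was 2.23 to 2.76. Per3 over Arntl gave 1.90, 3.12 and 0.647, so Per3 was above Arntl in WT and PS19 and below it in PS19 Zbp1+/- (0.571 to 0.735). Per2 over Arntl gave 2.67, 4.38 and 1.45, and Per1 over Arntl gave 5.92, 10.4 and 4.66. For these 5 genes PS19 had the highest ratio, WT the middle one and PS19 Zbp1+/- the lowest. Nr1d1 over Arntl was 8.83 in WT (7.91 to 9.86), 13.2 in PS19 and 8.45 in PS19 Zbp1+/- (7.68 to 9.31), so that WT and PS19 Zbp1+/- were alike within counting error. All of these ratios share the Arntl count as denominator, so they are not independent of each other.

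**Figure D3:**
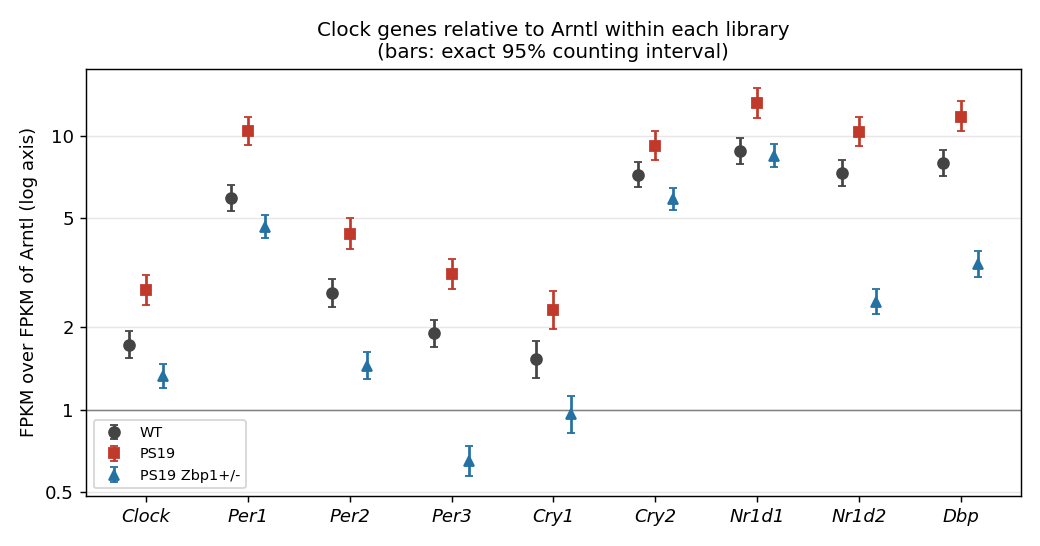
FPKM of 9 clock genes divided by the FPKM of Arntl in the same library (log axis), for WT (circle), PS19 (square) and PS19 Zbp1+/- (triangle); bars are exact 95% intervals of counting error and the horizontal line marks the level of Arntl. PS19 has the highest ratio for every gene shown, and Per3 passes from above Arntl (1.90 in WT) to below it (0.647 in PS19 Zbp1+/-), while Cry1 passes from 1.53 to 0.964 with an interval that includes the level of Arntl (0.824 to 1.13).

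A gene was called higher or lower when its log2(FPKM + 1) differed by at least 0.585, that is 1.5-fold, among protein-coding genes that reached an FPKM of 1 in one of the libraries compared. All 10 clock genes entered every comparison. Between PS19 and WT, 0 of 10 clock genes were called. Among all 12703 genes, 6.34% were called higher and 2.71% lower, so 70.1% of calls were higher. That share was 84% after rescaling to TPM and 92.3% when centred on neuronal markers. The clock genes had a median difference of 0.12 against -0.03 for all genes, and ranged from -0.33 for Arntl to 0.34 for Per1. A difference as large as that of Per1 in either direction was seen in 26.6% of all genes.

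Between PS19 Zbp1+/- and PS19, 3 of 10 clock genes were called lower and 1 higher, where 12.1% of 12772 genes were called lower and 9.37% higher. The higher share of all calls, 43.7%, depended on scaling, at 22.8% per total reads, 15.5% in TPM and 5.37% centred on neuronal markers, and was 63.2% among genes with a mean FPKM of at least 5. The median difference over all genes was 0.04 as deposited and -0.12, -0.23 and -0.39 under those 3 scalings. Per3 differed by -1.06, Nr1d2 by -1.02 and Dbp by -0.78, and Arntl by 0.75. Per2 was short of the threshold at -0.55, and was past it under 6 of 7 other scalings, pseudocounts and corrections, down to -0.98, which made the number of clock genes lower 4 or more. Differences at least as large were seen in 6.19% of all genes for Per3, 6.86% for Nr1d2, 12.8% for Dbp and 13.7% for Arntl. The median of the 10 genes was -0.20 against 0.04 for all genes.

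Between PS19 Zbp1+/- and WT, the same 3 genes were called lower and 0 were called higher, against 7.12% and 6.71% of 12436 genes. The higher share of all calls was 48.5%, and 26.4% per total reads, 27% in TPM, 10.8% centred on neuronal markers and 62.3% at a mean FPKM of at least 5. The median over all genes went from 0.01 to -0.12, -0.14 and -0.25 under the 3 scalings. Nr1d2 differed by -0.97, Per3 by -0.83 and Dbp by -0.67, and differences at least as large were seen in 3.63%, 5.87% and 10.1% of all genes. Nr1d1 at 0.45 and Arntl at 0.42 were below the threshold. The median over the 10 genes was 0.00 and that over all genes 0.01. These comparisons share libraries, so their values are set side by side and do not support each other.

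**Figure D4:**
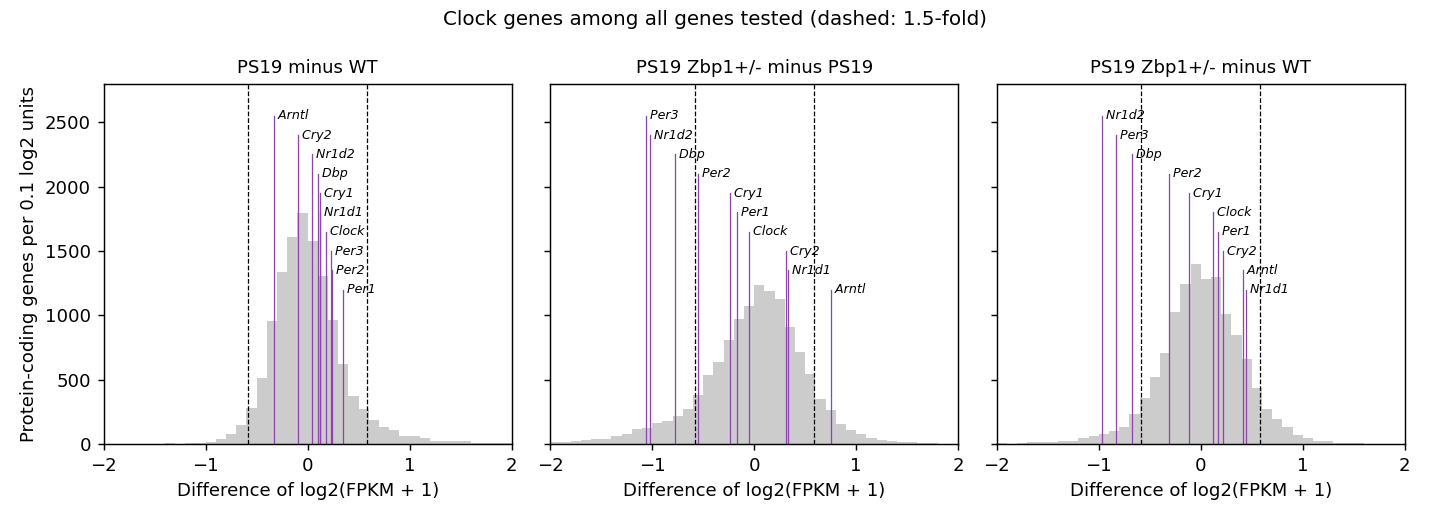
Histograms of the difference of log2(FPKM + 1) for all protein-coding genes tested (grey, genes per 0.1 log2 units, drawn from -2 to 2) in the 3 comparisons, with a purple line at the difference of each clock gene; line heights only separate the labels, and dashed lines mark 1.5-fold. No clock gene lies outside the dashed lines for PS19 minus WT, whereas Per3, Nr1d2 and Dbp lie below the lower line in both comparisons with PS19 Zbp1+/-.

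The members were also split by textbook phase. Per1, Per2, Per3, Nr1d1, Nr1d2 and Dbp form 1 group of 6, and Arntl and Clock form the other. The median difference of the first minus that of the second was 0.25 for PS19 minus WT, -1.01 for PS19 Zbp1+/- minus PS19 and -0.76 for PS19 Zbp1+/- minus WT. Within the last, the Per group had a median of -0.49 and the Arntl group of 0.27. Without Nr1d1 and Dbp, the members that share the most exon bases with an antisense gene relative to their length, the 3 values were 0.31, -1.13 and -0.84. Neither group moved as one. In the first, differences between PS19 Zbp1+/- and WT ran from -0.97 for Nr1d2 to 0.45 for Nr1d1, with 4 below 0 and 2 above. Between PS19 Zbp1+/- and PS19 they ran from -1.06 for Per3 to 0.33 for Nr1d1, with 5 below 0 and 1 above. In the second, they were 0.75 for Arntl and -0.05 for Clock between PS19 Zbp1+/- and PS19. Between PS19 and WT, Arntl differed by -0.33 and Clock by 0.18. As background, where the clock runs Arntl peaks at the opposite time of day from Dbp, Nr1d1, Nr1d2 and Per3 of the first group. The level of those genes relative to Arntl therefore depends on when tissue is taken. The labels give no collection time, so whether it differed between the libraries was not tested, and with 1 library per genotype it cannot be told apart from genotype, sex or animal.

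Of 23 further clock genes, 21 reached an FPKM of 1 in at least 1 library. Between PS19 and WT, 1 of 21 was called higher and 1 lower. Between PS19 Zbp1+/- and PS19, 1 of 21 was higher and 3 were lower, and between PS19 Zbp1+/- and WT, 1 of 21 was higher and 1 lower. Over all genes tested, 6.34% were higher and 2.71% lower in the first of these comparisons. The shares were 9.37% and 12.1% in the second and 6.71% and 7.12% in the third. The counts among the 21 lay near those shares. Ciart (Chrono), a repressor of ARNTL and CLOCK that cycles with the Per genes, had FPKM values of 6.72, 8.55 and 2.01, from 262, 334 and 72 reads. Its ratio of PS19 Zbp1+/- over WT was 0.30 (0.228 to 0.390), further from 1 than that of any of the 10 members. Npas2, a forebrain paralog of Clock that cycles with Arntl, had FPKM values of 5.71, 3.28 and 11.3, from 472, 272 and 858 reads. PS19 was the lowest library and PS19 Zbp1+/- the highest, in the order of Arntl, with a ratio of 1.98 for PS19 Zbp1+/- over WT (1.77 to 2.22).

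Other genes called in this list set PS19 apart. Rora, an activator of Arntl, had FPKM values of 2.41, 6.60 and 2.05. Bhlhe41 (Dec2), a repressor that binds E-boxes, had 6.84, 9.86 and 5.97. The PAR bZIP relatives of Dbp were steadier than Dbp itself, with Tef at 50.6, 46.1 and 43.9 and Hlf at 20.7, 21.2 and 23.8. The differences of the kinases Csnk1d and Csnk1e, which phosphorylate PER proteins, did not pass 0.26 in any comparison.

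The 5 protein-coding genes whose centred log2(FPKM + 1) over the 3 libraries lay nearest to Dbp, of 7712 with a mean FPKM of at least 5, were Prox1, Svbp, Tbc1d15, Gpx1 and Gpcpd1, at Euclidean distances of 0.0112 to 0.0245. Nearest to Arntl were Grik5, Nr2f6, D430019H16Rik, Agap3 and Mrpl14, at 0.00442 to 0.0137. None of these is one of the clock genes listed, and each distance rests on 3 points.

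Promoter sequences are shown for the 4 clock genes called in a comparison, Per3, Nr1d2, Dbp and Arntl, and for Nr1d1, the paralog of Nr1d2, since their regulation by E-boxes, D-boxes and ROR elements defines the loop. They are the 250 bases upstream of the first RefSeq start (GRCm38.p6), written 5′ to 3′ on the gene's strand, with capitals marking the motifs found.
Per3, chr4:151044666-151044915, minus strand: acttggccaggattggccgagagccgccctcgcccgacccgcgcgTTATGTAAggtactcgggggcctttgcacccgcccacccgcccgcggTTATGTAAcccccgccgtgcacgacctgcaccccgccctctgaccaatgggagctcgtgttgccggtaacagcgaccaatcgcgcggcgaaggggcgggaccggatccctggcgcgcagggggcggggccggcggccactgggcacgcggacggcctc
Nr1d2, chr14:18239107-18239356, minus strand: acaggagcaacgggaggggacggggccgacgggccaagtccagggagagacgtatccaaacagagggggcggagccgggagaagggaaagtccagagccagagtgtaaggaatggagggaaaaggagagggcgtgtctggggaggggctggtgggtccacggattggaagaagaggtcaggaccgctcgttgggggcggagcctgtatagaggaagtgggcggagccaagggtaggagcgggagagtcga
Dbp, chr7:45704997-45705246, plus strand: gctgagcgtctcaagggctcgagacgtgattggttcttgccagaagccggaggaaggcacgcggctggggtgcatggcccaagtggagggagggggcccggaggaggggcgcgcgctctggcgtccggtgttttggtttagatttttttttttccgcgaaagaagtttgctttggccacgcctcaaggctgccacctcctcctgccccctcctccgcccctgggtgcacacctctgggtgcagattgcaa
Arntl, chr7:113207215-113207464, plus strand: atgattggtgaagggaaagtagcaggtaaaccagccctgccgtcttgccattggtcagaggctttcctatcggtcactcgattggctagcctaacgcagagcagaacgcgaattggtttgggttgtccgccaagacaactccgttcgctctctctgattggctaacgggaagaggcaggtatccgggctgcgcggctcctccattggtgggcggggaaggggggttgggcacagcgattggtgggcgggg
Nr1d1, chr11:98775378-98775627, minus strand: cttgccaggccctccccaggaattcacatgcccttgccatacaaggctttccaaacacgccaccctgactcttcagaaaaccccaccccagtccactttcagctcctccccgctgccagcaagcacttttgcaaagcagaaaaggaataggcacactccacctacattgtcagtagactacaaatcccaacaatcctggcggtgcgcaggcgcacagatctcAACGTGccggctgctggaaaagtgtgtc

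The search covered both strands for the E-box CACGTG, the E-box variant CACGTT, the D-box TTATGTAA or TTACGTAA, the ROR element TAGGTCA or TGGGTCA, and the cAMP element TGACGTCA. No motif overlapped another in these windows. RefSeq promoters were matched for 9 of the 10 genes, and Per2 was not matched. All their starts were searched, which gave 13 windows because some genes have more than 1 start. The shares below are per window, so a gene with more windows had more chances of a hit. Per3 held 2 D-boxes, which begin 205 and 158 bases before its start, and a D-box occurred in 0.931% of 32851 promoters of this length. Nr1d1 held 1 E-box variant at 28 bases before its start (3.85% of promoters). Per1, in the first of its 2 windows only, and Cry1 each held an E-box (6.02%), and Cry1 and Cry2 an E-box variant. Arntl, Clock, Dbp and Nr1d2 held none of these letters in any of their windows, which says nothing of sites elsewhere.

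Genes that follow other daily or acute signals were looked at beside the clock genes. For comparison, 6.34% of all genes tested were called higher and 2.71% lower in PS19 than in WT. The shares were 9.37% and 12.1% for PS19 Zbp1+/- against PS19, and 6.71% and 7.12% against WT. Of 8 temperature-responsive genes, 0 were called between PS19 and WT, and 2 were called lower in PS19 Zbp1+/- than in WT. Against PS19, PS19 Zbp1+/- was called higher for 1 and lower for 1. Rbm3, a cold-inducible RNA-binding protein gene, had FPKM values of 14.8, 15.5 and 7.89, and Hspa1b, a heat shock gene, had 9.12, 7.02 and 5.09. Hsph1, another heat shock gene, had 44.0, 35.04 and 56.2 and was the gene called higher than in PS19. Of 10 glucocorticoid-responsive genes, PS19 Zbp1+/- was called lower than PS19 for 8 and lower than WT for 6, and PS19 was called higher than WT for 4. Sgk1, a kinase gene induced by glucocorticoids, had FPKM values of 45.0, 56.7 and 12.9. Plin4 had 1.95, 11.6 and 0.427, and Cdkn1a had 2.72, 13.1 and 2.44. Fkbp5, of the same list, had 7.84, 8.18 and 7.17 and was not called in any comparison. Zbtb16 had 9.41, 16.8 and 13.3, and was the 1 gene of this list above WT in PS19 Zbp1+/-. Of 13 immediate early genes, 2 were called lower in PS19 Zbp1+/- than in WT, Npas4 (6.69, 5.63 and 2.62) and Fos (11.7, 11.5 and 5.53). All 13 were also lower in PS19 than in WT, with a median difference of -0.39, against -0.46 for PS19 Zbp1+/- minus WT. Of these, Egr4 was called lower in PS19 (33.9, 21.4 and 24.1). Between PS19 Zbp1+/- and PS19, 2 were called lower, and the median was -0.01. The part of the genes of these lists in the clock gene differences was not tested.

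**Figure D5:**
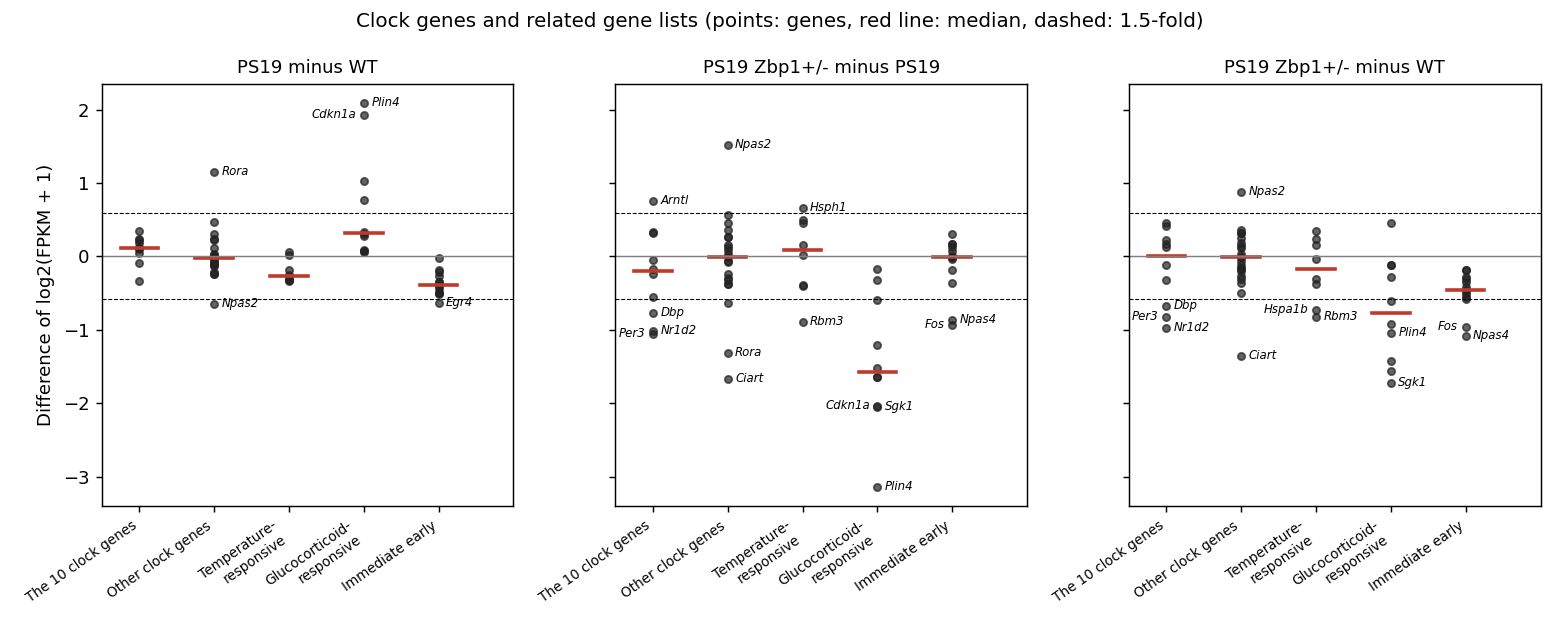
Difference of log2(FPKM + 1) for the genes of 5 lists (1 point per gene, red line at the list's median, dashed lines at 1.5-fold) in the 3 comparisons; selected genes past the dashed lines are named. For PS19 Zbp1+/- minus WT, Ciart, Nr1d2, Per3 and Dbp lie below the lower line and Npas2 above the upper one, and the glucocorticoid list has a median of -0.77.

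Levels of cell type markers also differed between the libraries, and in bulk RNA fewer cells of a type and less RNA per cell cannot be told apart. The summed FPKM of 6 choroid plexus markers was 3395, 2156 and 25.4 in the order WT, PS19, PS19 Zbp1+/-, and all 6 were called lower in PS19 Zbp1+/- than in both others. For 7 oligodendrocyte markers it was 834, 1494 and 544, with 7 called higher in PS19 than in WT. In PS19 Zbp1+/-, 7 of them were called lower than in PS19 and 3 lower than in WT. For 8 microglia markers it was 77.4, 214 and 90.4, for 8 astrocyte markers 560, 1417 and 685, for 10 neuron markers 2001, 1617 and 2491, and for 5 endothelial markers 55.0, 56.7 and 64.2. Between PS19 and WT, 6 of 8 microglia markers were called higher. P2ry12 (11.15, 10.09 and 8.661) and Tmem119 were not called. All 8 astrocyte markers were higher in PS19 than in WT, but only 3 were called. Most of the astrocyte rise from WT to PS19 was in Gfap (98.37, 767.9 and 112.5). The endothelial sum was highest in PS19 Zbp1+/- through Cldn5 (22.4, 19.1 and 38.1). In that library, 4 of the 5 endothelial markers were lower than in PS19 and 3 of the 5 lower than in WT. Of all the cell type markers, only Cst7, a microglia gene, was at 0 reads in a library, PS19 Zbp1+/-. The 1 call among astrocyte and microglia markers between PS19 Zbp1+/- and WT was Cx3cr1, which was higher. Against PS19, PS19 Zbp1+/- was called lower for 6 of 8 microglia and 4 of 8 astrocyte markers, and higher for 0 of either. It was called higher than PS19 for 4 of 10 neuron markers and lower for 0. For comparison, 6.34% of all genes tested were called higher in PS19 than in WT. In PS19 Zbp1+/-, 12.1% were called lower and 9.37% higher than in PS19, and 7.12% lower and 6.71% higher than in WT. The part of the markers' cell types in the clock gene differences was not tested.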

How the data were processed

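Hippocampal RNA of 3 genotypes was sequenced, 1 library each. The authors deposited 1 table of FPKM values for 54532 genes, with gene lengths. Trim Galore 0.6.5, STAR 2.5.3a, featureCounts 2.0.4 and build mm39 are named in the submitters' processing notes. The gene positions of the table equal those of GENCODE M21 (GRCm38) for 98.3% of 54495 shared gene IDs and for all 10 clock genes, and are given as deposited. The annotation release, strand setting and filters are not given in the sources used here.

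FPKM times gene length was a whole multiple (within 0.01) of 1 step for 100% of values in each column, which gave whole reads. These steps imply library sizes of 17253479 (WT), 17287957 (PS19) and 15826984 (PS19 Zbp1+/-), the denominators of read ratios. Differences were taken on log2(FPKM + 1), a scale that understates changes of low genes, for protein-coding genes reaching an FPKM of 1 in one of the libraries compared. With 1 library per genotype no test was run. Steps were tested on simulated data.

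The clock genes, the phase groups and the gene lists were chosen with earlier results of these data known, and the hippocampal list, the motifs and some alternatives after the values were seen. Named were all 10 members, the further clock genes called in any comparison, genes overlapping a member, the 5 genes nearest in pattern to Dbp and to Arntl, Zbp1, and up to 3 genes of each other list with the largest difference. Other genes named, such as Tef, Hlf, Csnk1d, Csnk1e, Cx3cr1, Ddx3y and Xist, were picked with their values known. One further clock gene of the list is not reported here. The alternatives were other pseudocounts, scalings, filters and thresholds, and a correction for GC content and length. Tables were handled with pandas 2.3.3 and numpy 2.4.6, intervals came from scipy 1.17.1, and plots from matplotlib 3.10.9, all under Python 3.11.15.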

Additional observations from a re-analysis of the deposited data

How the results depend on the processing

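Under 7 other scalings, pseudocounts and corrections, Per3, Nr1d2 and Dbp kept their direction and stayed past 1.5-fold in both comparisons with PS19 Zbp1+/-, and Arntl kept its direction in all 3 comparisons. Arntl ranged from 0.32 to 0.98 for PS19 Zbp1+/- minus PS19, where centring on neuronal markers took it below 1.5-fold. That centring left 0 clock genes higher and 6 lower in this comparison. A mean FPKM of at least 5 removed Arntl and left 0 higher, and it removed Per3 from PS19 Zbp1+/- minus WT, which left 2 lower. Per2 made the number lower than WT 4 with GC content and length corrected for. At 2-fold, 0 clock genes were higher in PS19 Zbp1+/- than in PS19 and 0 lower than in WT. At the lower fold threshold, 1 was higher and 1 lower in PS19 than in WT, and 2 were higher in PS19 Zbp1+/- than in PS19 and 2 than in WT. The phase group difference moved from 0.25 to 0.51 with Arntl alone and 0.46 with further clock genes added (PS19 minus WT), to -1.41 with Arntl alone (PS19 Zbp1+/- minus PS19) and to -1.08 with GC content and length corrected for (PS19 Zbp1+/- minus WT). None of the alternatives run turned its sign in any comparison. Centring on neuronal markers cannot change this value, and other library scalings cancel in it apart from the effect of the pseudocount. The sign under those settings therefore says nothing further.

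Counts over all genes moved more. Between PS19 and WT, genes called higher numbered 1218 with a pseudocount of 0.1, 1511 in TPM, 1371 centred on neuronal markers, 321 at a mean FPKM of at least 5, 1252 over all biotypes, 280 at 2-fold, 1886 at the lower threshold and 1274 by read ratios with a minimum of 3 reads. Genes called lower numbered 566 with a pseudocount of 0.1, 115 centred on neuronal markers, 668 over all biotypes, 37 at 2-fold, 1839 at the lower threshold, 163 after correction for GC content and length and 605 by read ratios. Between PS19 Zbp1+/- and PS19, genes called higher numbered 640 per total reads, 600 in TPM, 244 centred on neuronal markers, 255 at 2-fold and 3094 at the lower threshold, and genes called lower 3272 in TPM, 4302 centred on neuronal markers, 530 at a mean FPKM of at least 5, 659 at 2-fold and 2896 at the lower threshold. Between PS19 Zbp1+/- and WT, genes called higher numbered 1255 with a pseudocount of 0.1, 487 per total reads, 269 centred on neuronal markers, 1392 over all biotypes, 133 at 2-fold, 2531 at the lower threshold, 535 after correction for GC content and length and 1315 by read ratios. Genes called lower numbered 1358 per total reads, 1831 in TPM, 2212 centred on neuronal markers, 348 at a mean FPKM of at least 5, 1402 over all biotypes, 283 at 2-fold, 2236 at the lower threshold and 1369 by read ratios. The cause of these moves was not tested beyond what each setting does by construction. The correction for GC content and length, the read ratios and the phase groups without Nr1d1 or Dbp were added after the data had been seen. No paired analysis was possible because each genotype has 1 library, and no replicate could be left out.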
